A study of Arabidopsis thaliana with 14 samples.

Results

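AT5G54370, AT5G60520 and AT5G60530 are 3 Arabidopsis thaliana genes of a family annotated as related to late embryogenesis abundant (LEA) proteins. Each is read by 1 probe set of the Affymetrix ATH1 array (a group of short probes for a gene), and they are 3 of 13350 genes whose probe set pairs with 1 gene. They were chosen by these measured values, a signal lower with both treatments of the series than in untreated root tips, so their levels against the controls are given as a description, with no test. All 3 probe sets passed the filter on dim signal, as did 15605 probe sets in total.

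The series addresses crosstalk between auxin and cytokinin in the tip of the primary root. Every sample came from 1 line, AtIPT8/pga22, in the Wassilewskija background, and consisted of the terminal 5 mm of primary roots from seedlings grown for 7 days on plates. Plants of this line are known to make the cytokinin-synthesis enzyme IPT8, an isopentenyltransferase, when given estradiol, while the labels describe a T-DNA knock-out of IPT8. Treated seedlings received 5 µM 17-beta-estradiol for 12 h (3 arrays), 5 µM trans-zeatin, a cytokinin, for 12 h (2 arrays), estradiol for 24 h (2 arrays) or trans-zeatin for 24 h (2 arrays). Controls received the liquid medium alone for 12 h (3 arrays) or 24 h (2 arrays). Plants without the transgene were not among the groups, so an effect of estradiol itself and one of IPT8 cannot be told apart. IPT8 has no named probe set and its level was not analysed here.

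LEA proteins are mostly hydrophilic proteins that accumulate late in seed maturation and in tissues losing water, where they are thought to protect other proteins and membranes. The genes described here are named for their similarity to LEA proteins, and the family shares a region known as the Root cap domain, after the tissue that covers the growing tip. Cytokinin acts through receptor kinases and response regulators, and in the root it is known to limit the size of the meristem.

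The arrays themselves differed in ways that touch these results. On the second principal component, estradiol 12 h replicate 1 (32.03) and control 12 h replicate 3 (37.06) lay away from the rest (-26.52 to 13.05), and values that turn without them are given where they apply. The actin control probes give a 3′/5′ signal ratio, a measure of RNA integrity and labelling, which was 2.37 to 4.85 on the 9 treated arrays and 3.24 to 6.44 on the 5 control arrays. At 24 h it was 4.36 to 4.85 with estradiol and 3.71 to 4.30 with trans-zeatin, against 6.24 to 6.44 in the controls. The 12 h values were 2.4 to 3.3 with estradiol, 2.5 to 2.9 with trans-zeatin and 3.2 to 4.9 in the controls. This ratio thus moved with treatment and with time, and its part in the results was not tested beyond its use as a covariate. RR16, a type-A response regulator that cytokinin is known to induce, rose in all 4 comparisons with control by 2.49 to 3.16 on the log2 scale (adjusted p = 1.7e-05 to 8e-05, limma). In whole root tips, fewer cells of a type and less RNA per cell cannot be told apart.

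AT5G54370 was bright in untreated root tips and several-fold dimmer in every treated group. Its signal was 38.1, 78.7 and 65.7 with estradiol at 12 h and 27.8 and 32.4 with trans-zeatin at 12 h, against 238, 272 and 377 in the 12 h controls. By 24 h it was 35.2 and 10.8 with estradiol and 47.7 and 22.2 with trans-zeatin, against 314 and 322 in the controls. No treated array reached any control array: the dimmest control was 3.02 times as bright as the brightest treated array. The group means were 60.9 ± 20.7 (estradiol 12 h), 30.1 ± 3.30 (trans-zeatin 12 h) and 295 ± 72.6 (control 12 h), then 23.0 ± 17.2 (estradiol 24 h), 34.96 ± 18.0 (trans-zeatin 24 h) and 318 ± 5.19 (control 24 h; SD, n = 3 for estradiol and control at 12 h, n = 2 for the others). On the scale of log2(signal + 6.3), on which all changes and folds below are given, it was lower than the control by 4.57-fold with estradiol at 12 h (-2.19 ± 0.33, SE) and by 8.15-fold with trans-zeatin at 12 h (-3.03 ± 0.37). At 24 h this gene was 12.2-fold lower with estradiol (-3.60 ± 0.40) and 8.26-fold lower with trans-zeatin (-3.05 ± 0.40). The estradiol value at 24 h rests on 2 arrays that differ, and it was -4.24 without replicate 1 and -2.97 without replicate 2.

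AT5G60520 was at the floor of the array with either treatment. Its signal was 3.0, 5.9 and 9.8 with estradiol at 12 h and 1.4 and 3.8 with trans-zeatin at 12 h, against 54.3, 80.3 and 189 in the 12 h controls. After 24 h it was 0.85 and 0.59 with estradiol and 0.81 and 3.1 with trans-zeatin, against 89.4 and 81.2 in the controls. Of the 9 treated arrays, 8 lay under 6.3, the 20th percentile of all values, and 0 exceeded 23, the 40th percentile, so this probe set passed the filter through its controls alone. Values near that floor have no order among themselves. The treated means were 6.27 ± 3.41 with estradiol and 2.62 ± 1.72 with trans-zeatin at 12 h, against 108 ± 71.6 in the controls. At 24 h they were 0.719 ± 0.184 with estradiol and 1.95 ± 1.61 with trans-zeatin, against 85.3 ± 5.80 in the controls (SD, n as above). Against the controls the gene was 8.23-fold lower with estradiol (-3.04 ± 0.39) and 11.4-fold lower with trans-zeatin (-3.51 ± 0.44) at 12 h. By 24 h this gene was 13.0-fold lower with estradiol (-3.70 ± 0.48) and 11.2-fold lower with trans-zeatin (-3.48 ± 0.48). The added 6.3 sets the size of these folds. Without the brightest control array, control 12 h replicate 3, the changes at 12 h were -2.56 with estradiol and -3.04 with trans-zeatin.

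AT5G60530 kept a clear signal on all 9 treated arrays and was lower by less than the other two. Its signal was 70.4, 75.9 and 104 with estradiol at 12 h and 45.2 and 39.1 with trans-zeatin at 12 h, against 143, 136 and 234 in the 12 h controls. After 24 h the signal was 72.4 and 48.5 with estradiol and 73.2 and 43.6 with trans-zeatin, against 176 and 179 in the controls. The groups again did not overlap, but narrowly, the dimmest control being 1.31 times as bright as the brightest treated array. Mean signal was 83.4 ± 17.9 with estradiol and 42.2 ± 4.28 with trans-zeatin at 12 h, against 171 ± 54.7 in the controls. The mean at 24 h was 60.5 ± 16.9 with estradiol and 58.4 ± 21.0 with trans-zeatin, against 177 ± 2.16 in the controls. The changes were 1.94-fold lower with estradiol (-0.96 ± 0.24) and 3.55-fold lower with trans-zeatin (-1.83 ± 0.27) at 12 h. At 24 h they were 2.80-fold lower with estradiol (-1.48 ± 0.29) and 2.92-fold lower with trans-zeatin (-1.54 ± 0.29).

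**Figure D1:**
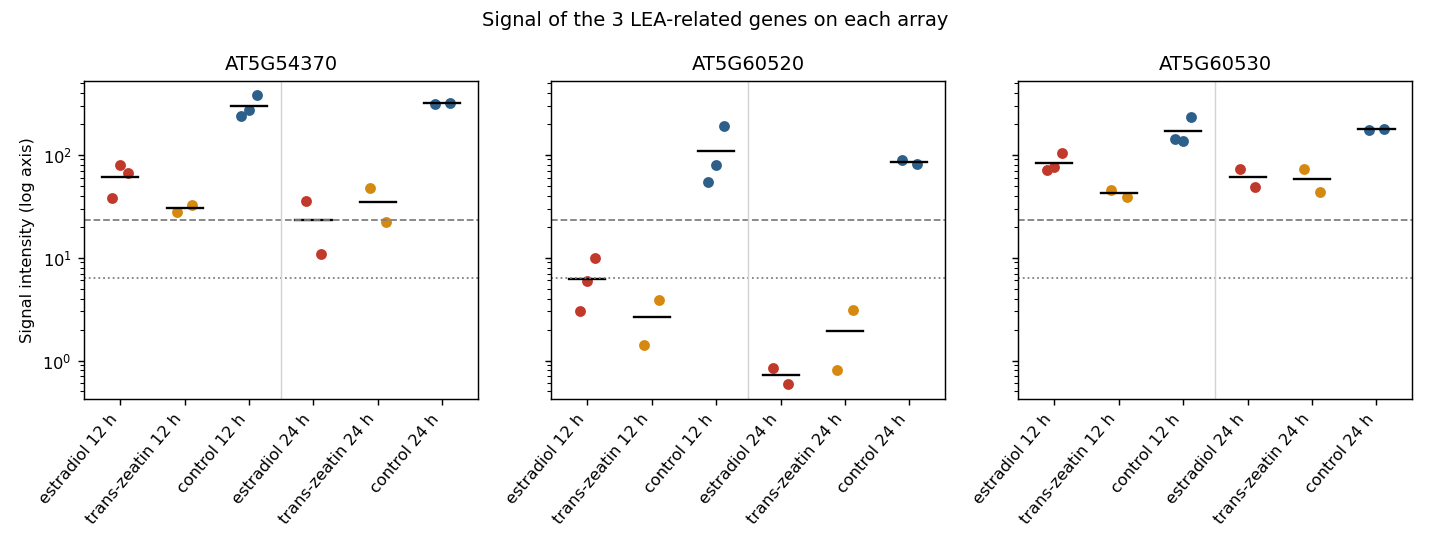
Signal intensity (log axis) of the 3 genes on each of the 14 arrays, with 1 point per array and a bar at each group mean. The dotted line marks 6.3 and the dashed line 23, and the 9 treated arrays lie below the 5 control arrays for each gene.

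Treated means were thus 7.24 to 20.6% of the control mean for AT5G54370 and 24.7 to 48.9% for AT5G60530, and no such share is given for AT5G60520, whose treated arrays were at the floor. Signals of different probe sets are not on a common scale, so levels are not ranked between genes here. How many of all probe sets had treated and control arrays without overlap was not counted, so nothing is read from the members' lack of overlap. Over all probe sets, 2.52% were called lower with estradiol at 12 h and 4.33% with trans-zeatin at 12 h. At 24 h the shares were 1.53% with estradiol and 1.32% with trans-zeatin. No count of calls is given for the members, since their choice would set it. All 4 comparisons together called 53 probe sets lower (0.34%), 32 of them with 1 gene. The members were picked for these same falls, so their place among such probe sets is not given.

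In the order of group means, the 2 control groups stood first for each gene. For AT5G54370 and AT5G60530 the controls at 24 h were above those at 12 h, and for AT5G60520 the order was the other way, but the arrays of the 2 control groups overlapped for each gene. Below the controls came estradiol 12 h for AT5G54370 and AT5G60530, and the neighbouring treated groups of these 2 genes overlapped in their arrays throughout. The treated groups of AT5G60520 have no order. The gap between the dimmer control group and the brightest treated group was the only step in each order without overlap.

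Differences between times and between the treatments set no treated group against a control, so the members were not picked on them directly, and they were tested. The same arrays did enter the choice of the members, so these tests are not fully independent of it. There are 15 such differences for the 3 genes. In 4 of them, those of AT5G60520 between treated groups, no array of either group exceeded 23, so they are not given as tests of the gene. None of the other 11 was called (limma, adjusted p under 0.05 over all probe sets). The background shares of called probe sets were 0.468% between the control times, 0.513% between the estradiol times, 0.32% between the trans-zeatin times, 0.00641% between the treatments at 12 h and 0.0449% between the treatments at 24 h. At an unadjusted p under 0.05, 3 of the 11 passed. Of all probe sets, 15.0, 9.77, 11.4, 8.47 and 5.72% passed that threshold in the same 5 comparisons, in the order just given.

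Without treatment, no difference between the times was called for these genes, and the intervals were wide. The control at 24 h minus the control at 12 h was 0.13 ± 0.37 for AT5G54370 (95% confidence interval -0.66 to 0.92), -0.14 ± 0.44 for AT5G60520 (-1.08 to 0.80) and 0.10 ± 0.27 for AT5G60530 (-0.48 to 0.67), with adjusted p from 0.90 to 0.91. Control 12 h replicate 3 was the brightest of the control arrays for each of the 3 genes.

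With estradiol, AT5G54370 and AT5G60530 were lower at 24 h than at 12 h in the mean, and neither difference was called. AT5G54370 had 35.2 and 10.8 at 24 h, against 38.1, 78.7 and 65.7 at 12 h, a difference of -1.28 ± 0.37 (interval -2.07 to -0.49, unadjusted p = 0.0038, adjusted p = 0.21, limma). The arrays of the 2 times did not overlap, and the gap between the nearest arrays was small. For AT5G60530 the difference was -0.43 ± 0.27 (adjusted p = 0.67). With trans-zeatin, 24 h minus 12 h was 0.11 ± 0.40 for AT5G54370 (interval -0.76 to 0.98) and 0.38 ± 0.29 for AT5G60530 (-0.25 to 1.01), with adjusted p = 0.94 and 0.65 in that order (limma). Whether the difference between times itself differed between estradiol and trans-zeatin was not tested.

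At the matched dose of 5 µM, the mean signal at 12 h was higher with estradiol than with trans-zeatin for AT5G54370 and AT5G60530, without a call. AT5G60530 had 70.4, 75.9 and 104 with estradiol, against 45.2 and 39.1 with trans-zeatin, so the arrays did not overlap. Its difference was 0.87 ± 0.27 (interval 0.30 to 1.45, unadjusted p = 0.0058, adjusted p = 0.48, limma). For AT5G54370 the difference was 0.84 ± 0.37 (interval 0.04 to 1.63, unadjusted p = 0.04, adjusted p = 0.56), again without overlap. At 24 h, estradiol minus trans-zeatin was -0.56 ± 0.40 for AT5G54370 (interval -1.42 to 0.31) and 0.06 ± 0.29 for AT5G60530 (-0.57 to 0.69), with adjusted p from 0.92 to 0.99. These intervals span differences in either direction, and do not show that the treatments acted alike.

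**Figure D2:**
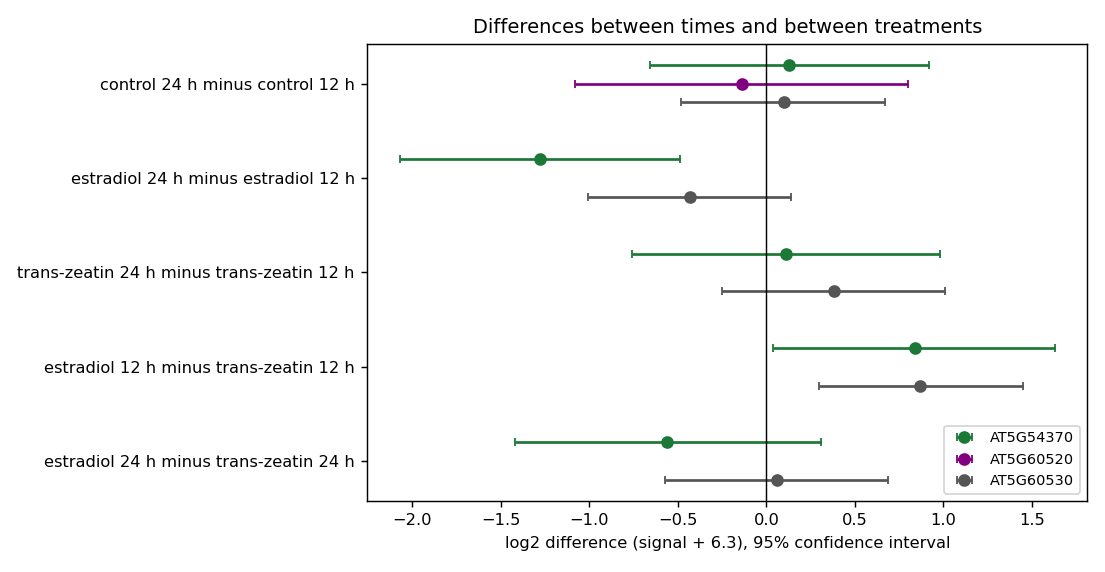
Differences in log2(signal + 6.3) between times and between treatments for the 3 genes, as points with 95% confidence intervals. The intervals of AT5G54370 (24 h minus 12 h with estradiol, and estradiol minus trans-zeatin at 12 h) and of AT5G60530 (estradiol minus trans-zeatin at 12 h) leave out 0, and none of the 11 differences was called after adjustment. AT5G60520, at the floor on treated arrays, is drawn for the controls alone.

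The 3 genes followed one another closely over the arrays, which their shared choice favours. Pearson's r of log2 values over the 14 arrays was 0.96 for AT5G54370 with AT5G60520, 0.95 for AT5G54370 with AT5G60530 and 0.92 for AT5G60520 with AT5G60530. Once each group's mean was taken out, r was 0.38, 0.77 and 0.55 for the same pairs, as a description of deviations within groups of 2 or 3 arrays that share each array's labelling and scaling. The treated values of AT5G60520 enter these figures at the floor.

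AT5G60520 and AT5G60530 lie side by side on chromosome 5 with 0 annotated genes between them, while 774 annotated genes of the same chromosome separate AT5G54370 from AT5G60520 in the TAIR10.1 gene table. Positions are not printed because the labels name no genome build. The annotated span of AT5G60520 overlaps that of its neighbour on the other side, cPT9, a cis-prenyltransferase gene with no named probe set, and whether the probe set of AT5G60520 also reads cPT9 was not tested. The nearest genes with a named probe set of their own were up to 11 genes away. Of 10 such probe sets tested around the members, 0 were called lower in any of the 4 comparisons with control (2.52, 4.33, 1.53 and 1.32% of all probe sets, as above). Their changes ran from -0.41 to 1.27 with estradiol at 12 h, -0.28 to 1.31 with trans-zeatin at 12 h, -0.33 to 1.15 with estradiol at 24 h and -0.36 to 0.73 with trans-zeatin at 24 h. Of the 2 probe sets of SIZ1, which encodes a SUMO ligase, 1 rose with trans-zeatin at 12 h (1.31 ± 0.33, adjusted p = 0.031, called under 17 of 25 alternatives), while the other gave 0.50 ± 0.20 (adjusted p = 0.15).

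A list held 3 further genes of the LEA-related family. It was drawn up with earlier results of these data known, so it is not independent of them, and AT1G54890 is also among the genes most like the members named below. The adjusted p-values and calls of the listed genes are therefore a description, and lend no support to a fall of the family. AT1G54890 fell in all 4 comparisons with control. Its signal was 24.7, 22.9 and 43.9 with estradiol at 12 h and 22.9 and 20.1 with trans-zeatin at 12 h, against 101.2, 80.6 and 139 in the 12 h controls. By 24 h the signal was 13.0 and 8.24 with estradiol and 10.4 and 5.69 with trans-zeatin, against 126 and 91.0 in the controls. All treated arrays lay below all control arrays. The fall was 3.10-fold with estradiol (-1.63 ± 0.27, adjusted p = 0.003, limma) and 3.99-fold with trans-zeatin (-2.0 ± 0.30, adjusted p = 0.0016) at 12 h. At 24 h the fall was 6.76-fold with estradiol (-2.76 ± 0.32, adjusted p = 0.00025) and 8.01-fold with trans-zeatin (-3.0 ± 0.32, adjusted p = 0.00011). The 4 treated arrays at 24 h, the trans-zeatin arrays at 12 h and estradiol 12 h replicate 2 were under 23. The size of all 4 folds thus depends on the added 6.3. Over the alternatives the change at 24 h ran from -3.37 to -1.96 with estradiol and from -3.8 to -2.07 with trans-zeatin. The change at 12 h ran from -2.33 to -1.28 with estradiol and from -2.57 to -1.52 with trans-zeatin. AT1G54890 was called in each comparison under all 25 alternatives of the processing.

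AT4G27400 fell in 3 of the 4 comparisons, and with estradiol at 12 h it was not called. Its mean signal was 26.7 ± 5.35 with estradiol at 12 h and 14.2 ± 1.15 with trans-zeatin at 12 h, against 36.1 ± 5.00 in the controls (SD, n = 3, 2 and 3). After 24 h the mean was 20.1 ± 0.704 with estradiol and 11.2 ± 0.239 with trans-zeatin, against 49.9 ± 0.956 in the controls (n = 2 each). The fall was -1.04 ± 0.23 with trans-zeatin at 12 h (adjusted p = 0.016), -1.09 ± 0.25 with estradiol at 24 h (adjusted p = 0.028) and -1.69 ± 0.25 with trans-zeatin at 24 h (adjusted p = 0.0016). With estradiol at 12 h it was -0.36 ± 0.21 (adjusted p = 0.35). On every treated array of the 3 called comparisons the signal was under 23, the 40th percentile. It was 15.0 and 13.4 with trans-zeatin at 12 h. At 24 h it was 19.6 and 20.6 with estradiol and 11.3 and 11.0 with trans-zeatin. The size of these 3 falls thus depends on the added 6.3. Over the 25 alternatives the change with trans-zeatin ran from -1.34 to -0.66 at 12 h and -2.16 to -1.09 at 24 h. With estradiol at 24 h it ran from -1.31 to -0.76. The estradiol call at 24 h was lost without any one of its 4 arrays (adjusted p = 0.10 to 0.16), and the trans-zeatin call at 12 h without control replicate 1 (0.061) or trans-zeatin replicate 2 (0.12). The actin ratio as a covariate ended all 3 calls (adjusted p = 0.15 to 0.23).

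**Figure D3:**
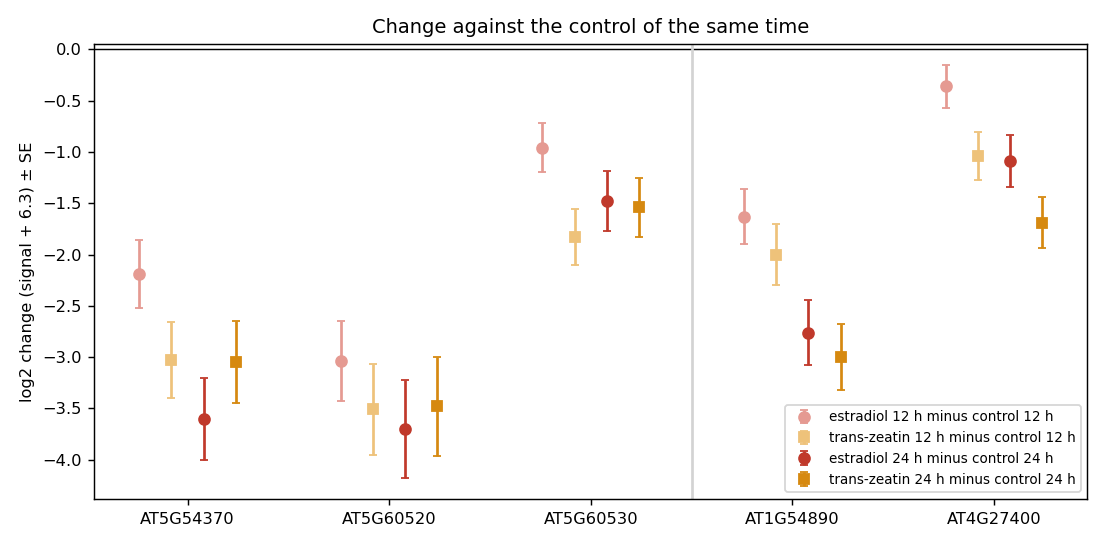
Change in log2(signal + 6.3) against the control of the same time, as points with SE, for the 3 genes picked for their fall (left of the grey line) and for 2 relatives (right). All points lie below 0, and AT4G27400 with estradiol at 12 h, at -0.36, was not called.

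The third relative, AT3G19430, was dim, with 1 array above 23 (28.2 in control 12 h replicate 3), and was left out of the tests. Its signal was 0.757 to 4.17 with estradiol and 6.62 to 15.0 with trans-zeatin at 12 h, against 6.69 to 28.2 in the controls. At 24 h its signal was 0.706 to 5.43 with estradiol and 0.641 to 1.48 with trans-zeatin, against 2.99 to 12.3 in the controls. Of the 2 relatives tested, 1 was called lower with estradiol at 12 h (2.52% of all probe sets), 2 with trans-zeatin at 12 h (4.33%), 2 with estradiol at 24 h (1.53%) and 2 with trans-zeatin at 24 h (1.32%). In the same order, 0 were called higher, against 2.36, 3.21, 2.28 and 2.15% of all probe sets. Nothing is read from these counts, since the list was drawn up with earlier results known. The 3 members and these relatives have 1 probe set each, and no test compared the relatives with other genes as a set.

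**Figure D4:**
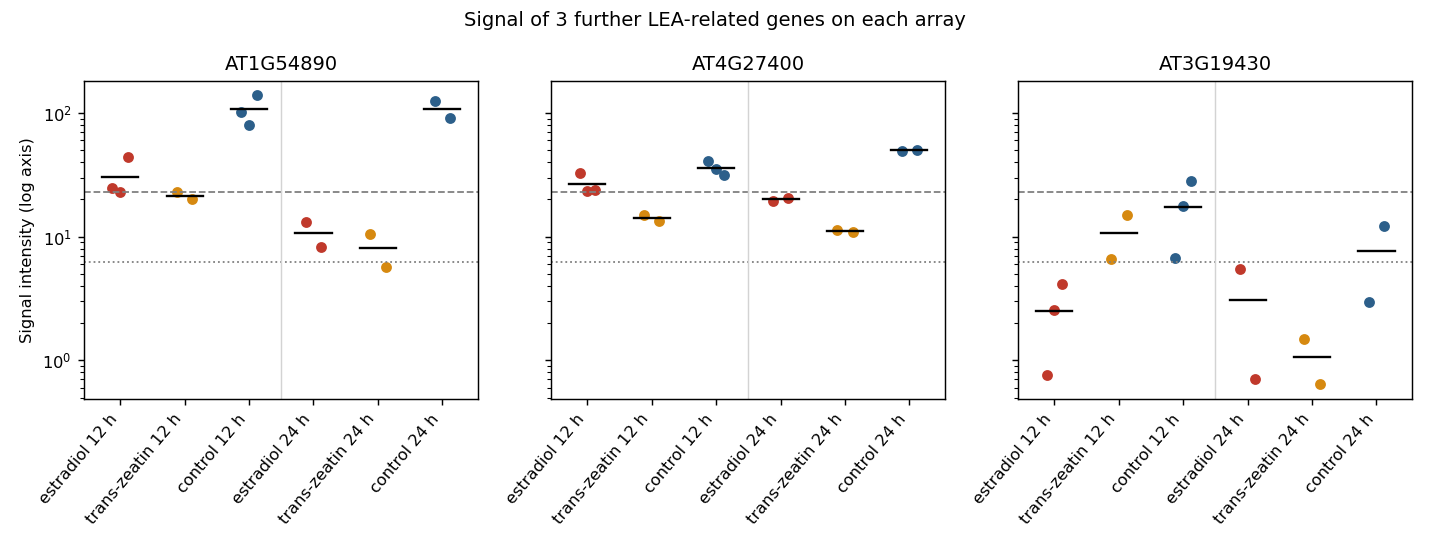
Signal intensity (log axis) of 3 further LEA-related genes on each array, with 1 point per array and a bar at each group mean. The dotted line marks 6.3 and the dashed line 23, and treated and control arrays are apart for AT1G54890 while AT3G19430 lies near the floor.

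Other LEA proteins and dehydrins, which are LEA proteins known for their response to cold, drought and abscisic acid, were called in few cases, in both directions. Of 41 listed genes, 27 are paired with a probe set, and 16 passed the filter. With estradiol at 12 h, 1 of the 16 was called higher and 1 lower (2.36 and 2.52% of all probe sets). With trans-zeatin at 12 h the counts were again 1 higher and 1 lower (3.21 and 4.33%). With estradiol at 24 h, 0 were called in either direction (2.28 and 1.53%), with 3 of 16 at an unadjusted p under 0.05, a threshold that 18.3% of all probe sets passed. With trans-zeatin at 24 h, 0 were called higher and 1 lower (2.15 and 1.32%). The median change of the 16 was 0.06 with estradiol and -0.36 with trans-zeatin at 12 h, and -0.99 with estradiol and 0.00 with trans-zeatin at 24 h. The medians over all probe sets lay between -0.09 and 0.00 in these comparisons. For several of the 16 genes the 2 estradiol arrays at 24 h were far apart, 1 of them near the floor. LEA18 had 3.49 and 55.1 and LEA had 0.98 and 27.0, while the bright COR47 had 971 and 903. AT3G53040 had closer arrays, 14.3 and 22.25, against 39.0 and 52.1 in the controls (-1.08 ± 0.42, adjusted p = 0.18, limma, not called). Of the 16 changes with estradiol at 24 h, 12 were negative and 4 positive, and the share of negative changes over all probe sets was not counted. What set the median of -0.99 was not tested.

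AT4G38410, a dehydrin, fell with estradiol at 12 h (42.9 ± 5.75, against 149 ± 43.2 in the controls, n = 3 each; -1.63 ± 0.28, adjusted p = 0.0046, limma). With trans-zeatin it fell at 12 h (-1.95 ± 0.32, adjusted p = 0.0029) and at 24 h (-1.65 ± 0.35, adjusted p = 0.016), and with estradiol at 24 h it was -1.17 ± 0.35 (adjusted p = 0.078). The trans-zeatin call at 24 h was lost without any one of its 4 arrays (adjusted p = 0.10 to 0.12). It held under 20 of the 25 alternatives, with adjusted p up to 0.40 (limma). AT1G54410 (HIRD11), a dehydrin known to bind metal ions, rose at 12 h, to 2442 ± 367 with estradiol (n = 3) and 3187 ± 346 with trans-zeatin (n = 2), against 1425 ± 232 in the controls (n = 3). These changes were 0.78 ± 0.14 (adjusted p = 0.0063) and 1.17 ± 0.16 (adjusted p = 0.00088). At 24 h the changes were 0.12 ± 0.17 with estradiol and 0.39 ± 0.17 with trans-zeatin (adjusted p = 0.76 and 0.27), and the controls themselves were higher at 24 h than at 12 h (0.97 ± 0.16, adjusted p = 0.015). The calls of both dehydrins at 12 h were lost with the actin ratio as a covariate (adjusted p = 0.055 to 0.16). Each of these calls held under 23 or 24 of the 25 alternatives, with adjusted p up to 0.21 (limma). M17, a seed LEA gene singled out after its values were seen, was at 0.19 and 3.00 with estradiol at 24 h, against 60.5 and 63.2 in the controls, and was not called (adjusted p = 0.068).

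**Figure D5:**
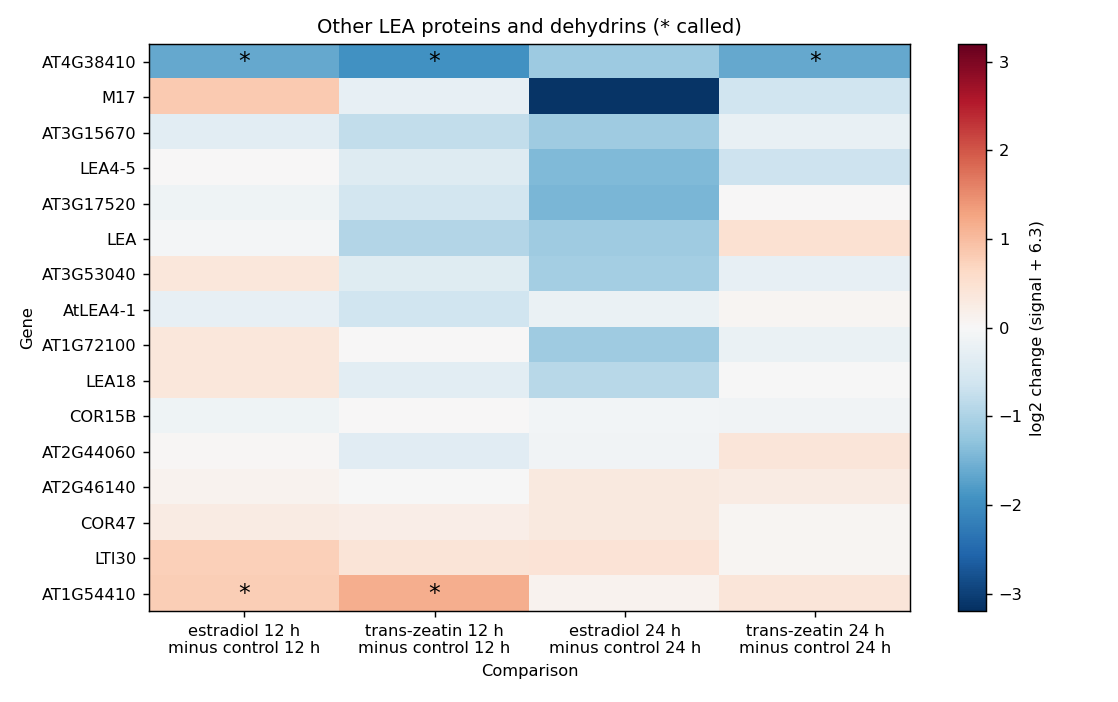
Change in log2(signal + 6.3) against the control of the same time for the 16 other LEA and dehydrin genes measured, with an asterisk where a change was called. Calls stand for AT4G38410 (lower, in 3 comparisons) and AT1G54410 (higher, in 2 comparisons).

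Of 16 listed genes of the abscisic acid response, the hormone pathway to which many LEA genes belong, 0 have a named probe set, so that pathway was not analysed here.

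Among single-gene probe sets, the 5 genes most like the members by their mean r over the 14 arrays were LEP (0.95), AT5G10130 (0.95), AT4G17520 (0.94), sks15 (0.94) and AT1G54890 (0.93). They were chosen for this likeness, so their levels are a description (mean ± SD, n = 3 for estradiol and control at 12 h, n = 2 for the others). LEP encodes a transcription factor of the AP2/ERF type, known for its effect on the leaf petiole. Its signal averaged 52.3 ± 2.59 with estradiol and 27.1 ± 4.57 with trans-zeatin at 12 h, against 114 ± 23.4 in the controls, and 26.8 ± 2.11 with estradiol and 33.8 ± 1.44 with trans-zeatin at 24 h, against 121 ± 19.2 in the controls. AT5G10130, which encodes a protein similar to the pollen allergen Ole e I, averaged 33.7 ± 1.81 with estradiol and 15.4 ± 0.684 with trans-zeatin at 12 h, against 381 ± 135 in the controls. sks15, named for its similarity to the cell wall protein SKU5, was like AT5G60520 at or near the floor on treated arrays, averaging 6.50 ± 3.88 with estradiol and 4.27 ± 4.07 with trans-zeatin at 12 h, against 83.2 ± 67.0 in the controls. AT4G17520, of a family that binds RNA, was the least changed of the 5, at 1.43-fold to 1.74-fold lower. AT5G54370 had r over 0.9 with 38 probe sets, AT5G60520 with 53 and AT5G60530 with 29. Each of these counts includes the gene's own probe set and those of the other members.

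The labelled tissue was checked against listed marker genes. Of 18 genes listed as markers of the root cap, the tissue for which the family's domain is named, 6 are paired with a probe set. The filter kept 4 of them, and whether these 4 are specific to the root cap was not tested. Of these 4, 0 were called lower in a comparison with control, which the background shares of 1.32 to 4.33% would also give, so nothing is read from it. CR4 and AT1G65570 were near the floor in all groups, with group means of 0.766 to 2.33 and 2.38 to 8.43. The summed signal of the 6, most of it from scpl48, was 646 to 1111 with estradiol and 914 to 961 with trans-zeatin at 12 h, against 455 to 704 in the controls. By 24 h this sum was 977 to 993 with estradiol and 818 to 977 with trans-zeatin, against 606 to 720 in the controls. With trans-zeatin at 12 h AT2G14095 (adjusted p = 0.03) and AT4G18425 (adjusted p = 0.039) were called higher, and AT4G18425 also at 24 h (adjusted p = 0.047). These calls held under 16, 13 and 8 of the 25 alternatives, in that order. AT4G04460 moved otherwise than the sum at 12 h, with means of 14.5 with estradiol and 14.2 with trans-zeatin, against 24.0 in the controls, and was not called. Root hair markers, 2 of 10 measured, summed to 57.1 to 106 with estradiol and 59.5 to 83.4 with trans-zeatin at 12 h, against 73.1 to 158 in the controls. Their sum at 24 h was 64.7 to 85.3 with estradiol and 82.1 to 91.2 with trans-zeatin, above the 48.2 to 61.6 of the controls. Endodermis, cortex and stele markers, 2 of 10 measured, summed to 110 to 144 with estradiol and 87.6 to 136 with trans-zeatin at 12 h, against 94.0 to 151 in the controls. At 24 h these markers summed to 162 to 169 with estradiol and 135 to 152 with trans-zeatin, below the 192 to 209 of the controls. AT5G42200 carries most of that sum, while AT1G09750 at 24 h had 6.36 and 44.0 with estradiol, on either side of the 19.2 and 20.6 of the controls. None of these 4 genes was called in a comparison with control. The root meristem, non-hair epidermis and green tissue lists have 0 named probe sets. The markers measured were few, and the part of cell makeup in the members' fall was not tested.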

How the data were processed

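Each of 14 root tip RNA samples was hybridised to 1 ATH1 array. Per the submitters' processing notes the authors used MAS5 and GCOS, whose settings are not stated there. The deposited signal intensity is linear, and in every array the mean was 100 after 2% of the values were trimmed at either end, so the arrays were compared without another normalization. Nothing in the labels says that replicates were separate cultures, so p-values measure the spread between these samples, and 2 or 3 arrays per group limit the precision.

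The reference tables pair 13513 of 22810 probe sets with 1 gene, 503 with several and 8794 with none. Values were taken as log2(signal + 6.3), where 6.3 is the 20th percentile. Probe sets with at least 2 arrays above 23 (the 40th percentile) were kept, 15605 in all. limma 3.58.1 in R 4.3.3 fitted 6 group means to all arrays, with the prior variance following intensity (residual df 8, prior df 5.96). Tests were two-sided and adjusted by Benjamini-Hochberg. The fit was tested on simulated data.

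The members and gene lists were chosen with earlier results of these data known. Named genes are the members, the listed LEA genes and markers, the nearest neighbours with a probe set (3 on each side) and the 5 genes most like the members. Same-numbered replicates were tested for shared deviations: 3 of 31 pairs had r over 0.1 (range -0.27 to 0.19), and the numbers were not used as pairs. Alternatives changed the pseudocount, filter, normalization, moderation, covariates and arrays used. Sequences and promoters were not used here.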

Additional observations from a re-analysis of the deposited data

How the results depend on the processing

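None of the 11 tests of the members above the floor passed under any of 25 alternatives (275 values, 16 with the other sign, lowest adjusted p 0.058, for AT5G54370 with estradiol at 24 h minus 12 h, -1.92, without estradiol 24 h replicate 1). All changes of the members against control stayed negative. The causes of the changes below were not tested. With the actin ratio as a covariate, AT5G60520 turned to 0.85 for control 24 h minus 12 h and, between treated groups at the floor, where a sign tells nothing, to 0.18 for estradiol 24 h minus 12 h, 0.67 for trans-zeatin 24 h minus 12 h and 0.06 for estradiol minus trans-zeatin at 24 h, AT1G54410 to -0.07 for estradiol 24 h minus control, and AT4G18425 to 0.0 for estradiol 12 h minus control. The ratio of the other actin pair, chosen after seeing the data, gave -0.06 (AT5G54370) and -0.14 (AT5G60530) for control 24 h minus 12 h, 0.08 (AT5G60530) for estradiol 24 h minus 12 h, 0.32 (AT5G60520) for trans-zeatin 24 h minus 12 h, 0.0 (AT5G60530) for estradiol minus trans-zeatin at 24 h and -0.18 (AT4G18425) for estradiol 12 h minus control. For control 24 h minus 12 h, AT5G60520 was 0.20 with the replicate block and 0.34 without both arrays that stand apart, and AT5G60530 was -0.02 with arrays centred on their medians, which moved the median of all probe sets by -0.11 there and by 0.11 for estradiol 24 h minus control. The block changed no call of the members.

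Leaving out 1 array at a time, control 24 h minus 12 h ran from -0.01 to 0.32 (AT5G54370), -0.51 to 0.34 (AT5G60520) and -0.04 to 0.34 (AT5G60530). Trans-zeatin 24 h minus 12 h ran from -0.35 to 0.57 (AT5G54370) and -0.31 to 0.09 (AT5G60520), and estradiol minus trans-zeatin at 24 h from -1.19 to 0.08 (AT5G54370) and -0.28 to 0.40 (AT5G60530). The mean of the 4 changes of AT5G60520 against control, -3.44, was -5.35 without a pseudocount, -2.14 with the 40th percentile added and -4.16 with the actin ratio; the floor limits it. Of the 2 relatives, the number called lower was 1 to 2 without 1 array for trans-zeatin 12 h and estradiol 24 h, 1 instead of 2 with the actin ratio for both and for trans-zeatin 24 h, 1 without a filter for estradiol 24 h, and 1 for trans-zeatin 12 h with the other actin pair or with those groups alone. AT1G54890 was called throughout.

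Calls over all probe sets moved widely between alternatives: 100 to 964 for estradiol at 12 h minus control (762 as reported), 130 to 1373 for trans-zeatin at 12 h (1176), 197 to 939 for estradiol at 24 h (595) and 78 to 1423 for trans-zeatin at 24 h (541). Between times they were 1 to 100 for the controls (73), 9 to 121 with estradiol (80) and 7 to 128 with trans-zeatin (50), and between treatments 1 to 5 at 12 h (1) and 2 to 21 at 24 h (7).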
